A study of Rattus norvegicus with 62 samples.

Results

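The immediate early genes followed here are Fos, Fosb, Jun, Junb, Egr1, Nr4a1, Atf3, Ier2, Ier3 and Myc, measured in rat heart after repeated dosing with rosiglitazone. Their probe sets were all those that the array's annotation assigns to exactly 1 gene, where that gene is one of the 10. The rule gave 13 probe sets for the 10 genes out of 31042 probe sets on the array, controls left out. Of these, 9 probe sets for 7 genes were bright enough to be tested among 18625 probe sets, and the 4 dimmer ones are described on their own.

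Immediate early genes are transcribed within minutes of a stimulus from factors already present in the cell, without new protein synthesis, and their messages are short lived. Growth factors, calcium, stretch and adrenergic drive reach them through MAP kinases and CREB, and in the heart they are known as an early transcriptional answer to pressure load and ischaemia. Most encode transcription factors: FOS and FOSB pair with JUN and JUNB to form AP-1, EGR1 is a zinc finger factor, NR4A1 an orphan nuclear receptor, ATF3 a stress factor of the bZIP family, and MYC a regulator of growth.

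The study dosed male Wistar rats by mouth once a day for 14 days with rosiglitazone, an agonist of the nuclear receptor PPARγ used against type 2 diabetes, or with the vehicle alone. Hearts were taken 6, 24, 168 or 336 h after the last dose, so the later times follow the withdrawal of the drug. The vehicle groups held 4, 6, 5 and 5 arrays at those times, the groups given 10 mg/kg/day held 5, 5, 5 and 6, and the groups given 80 mg/kg/day held 5, 5, 6 and 5, which makes 62 arrays in 12 groups. Since the labels leave it unsaid whether every array comes from its own animal, p-values here refer to the spread among arrays, part of which may be technical. Where hearts are counted below, the count is of arrays.

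Values are log2 signals after quantile normalisation, where 1 unit is a doubling, and levels are not compared between probe sets. Deposited array medians ran between 31.1 and 86.9, rank correlations within groups ran between 0.885 and 0.952, and no arrays were identical. Cardiac muscle markers averaged between 12.65 for Ryr2 and 14.07 for Tnnt2, above 99.5% of probe sets. Fabp4, a fatty acid carrier gene that PPARγ is known to induce, was higher at 80 mg/kg than in vehicle hearts at 6 h by 1.0 ± 0.15 (SE, limma adjusted p = 6.94e-05). Myl7, an atrial light chain gene, exceeded 9 on 10 arrays, of which 1 belonged to vehicle, 4 to 10 mg/kg and 2 to 80 mg/kg at 6 h, and 3 to 80 mg/kg at 24 h. The arrays fell into 3 clusters of 21, 21 and 20 on the first principal components, and all arrays at 336 h lay in the same cluster. In whole tissue, fewer cells of a type and less RNA per cell cannot be told apart.

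Promoter sequences are given as a description of the genes, and their relation to the measured levels was not tested. RefSeq entries of the rat build GRCr8 were held for 5 of the 10 members (Fosb, Junb, Egr1, Nr4a1 and Ier2), each of 300 bases that run 250 bases upstream to 50 bases downstream of the gene's start. The 4 shown are those of members bright enough to be tested, printed in lower case. Capitals mark matches to the serum response element known as the CArG box, to the cAMP response element TGACGTCA and to its core TGACG. All were read on both strands. The window of Fosb, a dim member, had no match to any of these and is not shown, and Fos and Jun had no entry. The core was added to the motifs after the sequences were seen. Egr1 lies at chr18:26736828-26737127 on the plus strand, Nr4a1 at chr7:134259888-134260187 on the plus strand, Junb at chr19:40080876-40081175 on the plus strand and Ier2 at chr19:40399123-40399422 on the plus strand.
Egr1: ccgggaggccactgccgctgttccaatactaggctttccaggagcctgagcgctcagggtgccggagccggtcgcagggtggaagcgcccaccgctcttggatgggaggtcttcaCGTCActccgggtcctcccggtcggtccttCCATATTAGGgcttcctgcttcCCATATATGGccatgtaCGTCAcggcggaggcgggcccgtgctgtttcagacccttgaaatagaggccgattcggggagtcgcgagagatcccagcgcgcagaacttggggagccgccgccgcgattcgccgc
Nr4a1: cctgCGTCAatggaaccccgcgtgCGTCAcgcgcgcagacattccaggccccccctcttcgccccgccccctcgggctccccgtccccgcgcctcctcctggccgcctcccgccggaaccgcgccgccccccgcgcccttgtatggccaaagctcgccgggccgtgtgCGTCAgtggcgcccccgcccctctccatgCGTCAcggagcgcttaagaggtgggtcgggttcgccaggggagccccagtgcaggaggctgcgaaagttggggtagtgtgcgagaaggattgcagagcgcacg
Junb: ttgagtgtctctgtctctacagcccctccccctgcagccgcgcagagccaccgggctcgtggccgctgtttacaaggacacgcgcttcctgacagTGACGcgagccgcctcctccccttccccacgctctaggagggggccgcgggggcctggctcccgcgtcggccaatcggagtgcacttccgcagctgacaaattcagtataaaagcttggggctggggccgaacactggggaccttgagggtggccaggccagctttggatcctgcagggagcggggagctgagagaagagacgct
Ier2: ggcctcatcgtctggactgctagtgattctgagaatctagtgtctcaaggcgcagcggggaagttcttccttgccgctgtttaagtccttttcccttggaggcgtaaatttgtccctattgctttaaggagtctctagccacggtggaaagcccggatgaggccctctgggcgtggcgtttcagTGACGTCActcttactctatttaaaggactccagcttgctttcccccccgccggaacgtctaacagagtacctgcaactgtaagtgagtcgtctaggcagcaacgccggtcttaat

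The Egr1 window held 2 CArG boxes, at -105 to -96 and at -83 to -74 from the start, and 2 copies of TGACG. A CArG box was found in 1.64% of the 33469 promoters of the same length, and TGACG in 21.2%. The Nr4a1 window held 4 copies of TGACG, the nearest at -53 to -49. The Ier2 window held the full TGACGTCA, found in 1.83% of promoters, at -66 to -59, within which both overlapping copies of its core lie. The Junb window held 1 copy of TGACG at -155 to -151. The AP-1 motif TGANTCA, present in 7.33% of promoters, had no match in the 5 windows. A match describes letters in these windows and not a site in use.

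Levels spanned different distances across the 62 arrays. Fos, on chromosome 6, ran between 4.25 and 9.26, a 32.2-fold range. Egr1 on chromosome 18 ran between 7.33 and 10.68 (10.2-fold), and Nr4a1 on chromosome 7 between 6.25 and 9.26 (8.04-fold). These 3 genes had the widest ranges among the 7 tested members. Junb on chromosome 19 covered 3.81-fold, Ier2, an early response nuclear protein gene on the same chromosome, 3.66-fold, and Ier3, a stress and NF-κB responsive gene on chromosome 20, 3.13-fold. The brightest of the 3 Jun probe sets (1389528_s_at, chromosome 5) covered 2.34-fold.

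**Figure D1:**
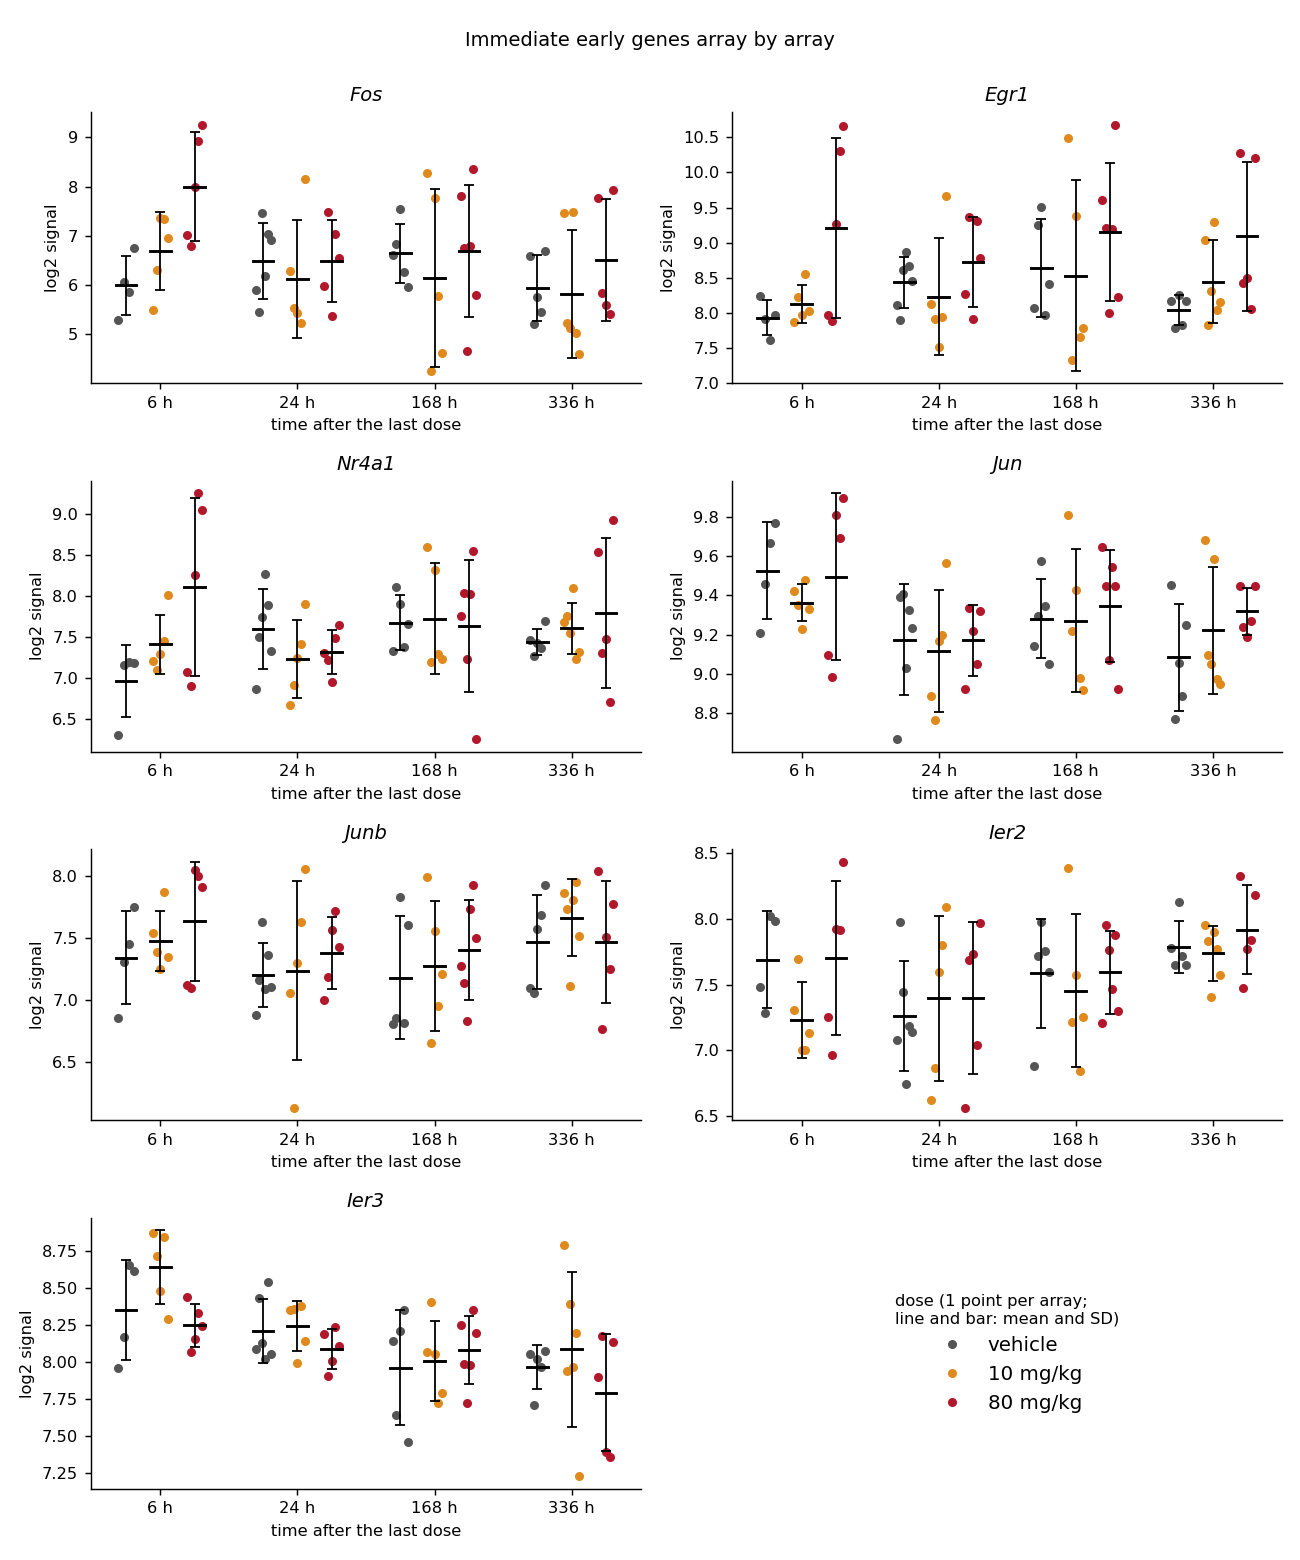
Log2 signal of each tested member (1 probe set a gene, the brightest for Jun) on every array, by dose and hours after the last dose, with group means as lines and SD as bars. Fos, Egr1 and Nr4a1 have some arrays far above the other arrays of their group at 10 and 80 mg/kg. All 5 Fos values at 80 mg/kg and 6 h lie above the 4 vehicle values.

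Whether rosiglitazone shifted these genes was asked first at 6 h, the time nearest to the last dose. Fos, the AP-1 subunit gene, had signals of 7.01, 6.80, 8.0, 8.93 and 9.26 on the arrays at 80 mg/kg, against 5.29, 6.06, 5.86 and 6.75 on the vehicle arrays. The groups did not overlap, although the lowest array at 80 mg/kg and the highest vehicle array nearly met. Groups in this comparison were apart in the same sense for 1.68% of all tested probe sets. The mean was 8.0 ± 1.11 (SD, n = 5) at 80 mg/kg and 5.99 ± 0.61 (SD, n = 4) in vehicle hearts, a difference of 2.01 ± 0.72 (SE), or 4.02-fold with a 95% interval of 1.48 to 10.9. Fos did not pass the threshold of 0.05 after adjustment over all probe sets (limma adjusted p = 0.507).

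Egr1 and Nr4a1 split the same 5 hearts in the same way. Egr1 had 7.96, 7.88, 9.26, 10.30 and 10.66 at 80 mg/kg, against 8.24, 7.91, 7.62 and 7.97 in vehicle hearts. Nr4a1 had 7.08, 6.90, 8.26, 9.26 and 9.05 at 80 mg/kg, against 6.30, 7.16, 7.20 and 7.19. In both genes replicates 4, 5 and 6 at 80 mg/kg lay above every vehicle array, and replicates 1 and 2 lay within the vehicle range. The Egr1 difference was 1.28 ± 0.53 (SE, limma adjusted p = 0.654), with 4 of 5 arrays above the vehicle mean. The Nr4a1 difference was 1.15 ± 0.39 (SE, limma adjusted p = 0.467), also with 4 of 5.

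The other members at 6 h were close to vehicle on average, but the same 3 hearts were high in several of them. Junb had 8.05, 8.0 and 7.91 in replicates 4, 5 and 6 and 7.12 and 7.10 in replicates 1 and 2, against 6.86, 7.31, 7.46 and 7.75 in vehicle hearts, so the group means differed by only 0.29 (95% interval -0.28 to 0.86). Ier2 had 7.92, 7.91 and 8.43 in replicates 4, 5 and 6 and 7.25 and 6.97 in replicates 1 and 2, against 7.48, 7.28, 8.02 and 7.98. The Ier2 means were 0.01 apart, with an interval of -0.56 to 0.58. The Jun probe set 1389528_s_at, for the other main AP-1 subunit, had 9.81, 9.69 and 9.90 in those 3 hearts and 9.09 and 8.98 in replicates 1 and 2, against 9.21, 9.46, 9.67 and 9.77, and its means differed by -0.03 (interval -0.40 to 0.34). Another Jun probe set, 1369788_s_at, ran between 8.77 and 9.84 at 80 mg/kg and between 8.96 and 9.46 in vehicle hearts. The dimmest, 1374404_at, reached at most 8.33 at 80 mg/kg, below the vehicle median of 8.40, with means of 8.07 and 8.35. Ier3 did not share the split, with 8.44, 8.07, 8.15, 8.33 and 8.24 at 80 mg/kg against 7.96, 8.17, 8.65 and 8.61, and a difference of -0.10.

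In all, 0 of 9 member probe sets passed limma's adjusted threshold at 80 mg/kg against vehicle at 6 h, where 0.0537% of all probe sets passed. Before adjustment 3 of 9 were under 0.05 (Fos, Egr1 and Nr4a1), against 6.65% of all probe sets. The median difference over the 9 was 0.01, as it was over all probe sets. Leaving out each array in turn kept the Fos difference between 1.69 and 2.31, that of Egr1 between 0.92 and 1.61, and that of Nr4a1 between 0.86 and 1.45. Within the array clusters, the Fos difference was 2.66 for 2 arrays at 80 mg/kg against 3 vehicle arrays, and 1.52 for 3 against 1. The Egr1 differences there were 2.01 and 0.81, and those of Nr4a1 1.76 and 0.59. Without the arrays of high Myl7 the differences of Fos, Egr1 and Nr4a1 were 2.66, 1.72 and 1.58.

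**Figure D2:**
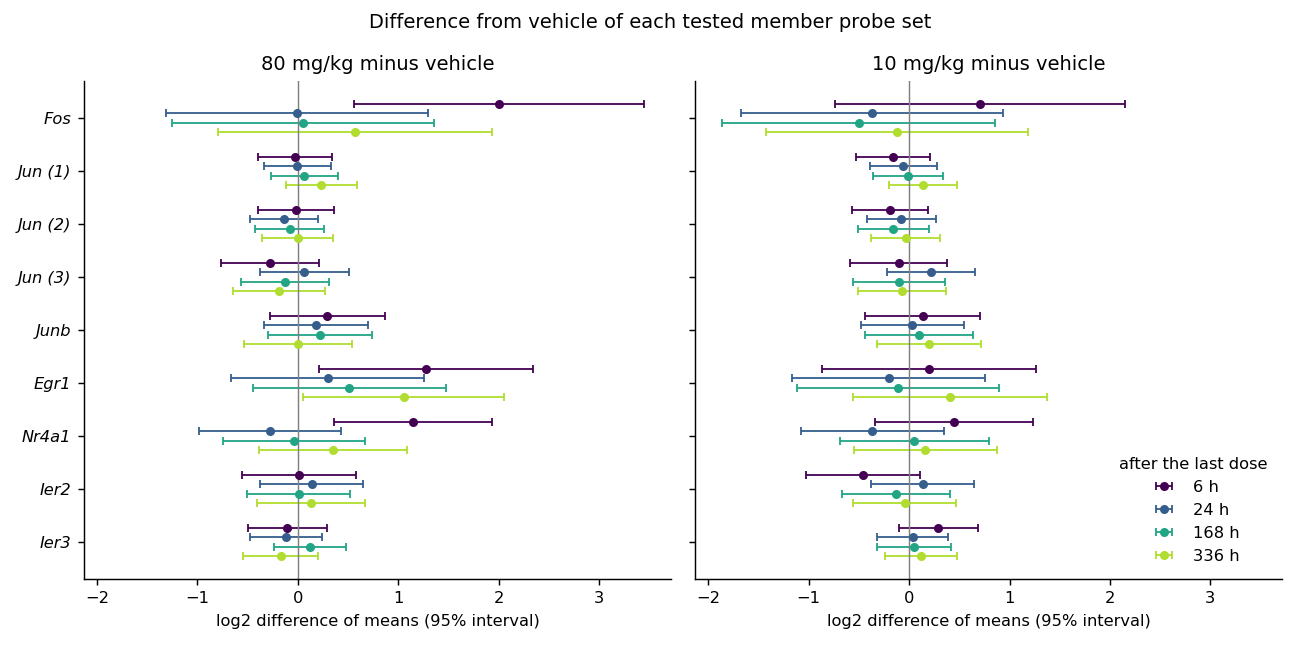
Log2 differences of the 9 tested member probe sets (Jun 1 to 3 run from its brightest to its dimmest), 80 mg/kg minus vehicle and 10 mg/kg minus vehicle, at each time, with 95% intervals from the fit over all 62 arrays. At 80 mg/kg and 6 h the intervals of Fos, Egr1 and Nr4a1 lie above 0, at 336 h that of Egr1 does, and none of the member probe sets passed the adjusted threshold.

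At 10 mg/kg the 6 h hearts lay between vehicle and 80 mg/kg in their Fos, Egr1 and Nr4a1 means. Fos had 5.49, 6.31, 7.36, 7.34 and 6.96, and the group means over the doses were 5.99 in vehicle hearts, 6.69 at 10 mg/kg and 8.0 at 80 mg/kg. The Fos difference of 10 mg/kg from vehicle was 0.70 (95% interval -0.74 to 2.15). Nr4a1 means over the doses were 6.96, 7.41 and 8.11, and those of Egr1 were 7.93, 8.13 and 9.21. The comparisons of 10 and of 80 mg/kg with vehicle share the vehicle arrays. None of the 9 member probe sets was under an unadjusted 0.05 at 10 mg/kg against vehicle at any of the 4 times, and 0% of all probe sets passed limma's adjusted threshold there. The unadjusted shares over all probe sets were 6.42%, 5.84%, 3.86% and 3.63% at 6, 24, 168 and 336 h.

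With 80 mg/kg set directly against 10 mg/kg at 6 h, 0 of 9 members passed, as did 0% of all probe sets, and 2 of 9 were under an unadjusted 0.05, against 3.68% of all probe sets. The first was Egr1, which had 7.87, 8.23, 7.97, 8.55 and 8.03 on the arrays at 10 mg/kg, below the values of the 3 high hearts at 80 mg/kg, and a difference of 1.08. This difference was 0.72 without replicate 6 at 80 mg/kg, and 1.91 and 0.53 within the array clusters. The second was Ier3, which had 8.44, 8.07, 8.15, 8.33 and 8.24 at 80 mg/kg against 8.87, 8.71, 8.47, 8.84 and 8.29 at 10 mg/kg, a difference of -0.39 that was -0.60 and -0.26 within the clusters and 0.01 on the deposited scale, where all probe sets shifted by a median of 0.38. At 24, 168 and 336 h none of the 9 passed for 80 against 10 mg/kg, with backgrounds of 0.0107%, 0.0376% and 0.102%, and none was under an unadjusted 0.05.

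At 24 h after the last dose the Fos values of the groups lay on top of each other. They were 5.97, 7.48, 5.37, 7.03 and 6.55 at 80 mg/kg, against a lowest of 5.44, a median of 6.55 and a highest of 7.47 in 6 vehicle hearts. The difference was -0.01 with a 95% interval of -1.31 to 1.29. Egr1 differed by 0.30 (-0.67 to 1.26), and Nr4a1 by -0.28 (-0.99 to 0.43). The Nr4a1 values at 80 mg/kg were 7.30, 7.22, 6.94, 7.48 and 7.65, so none of them reached the 3 high values of the 6 h group. At 24 h 0 of 9 members passed at 80 mg/kg against vehicle (background 0.14%), and 0 of 9 were under an unadjusted 0.05, against 11.1% of all probe sets.

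Set against the 6 h hearts of the same dose, the 24 h hearts at 80 mg/kg differed in Fos by -1.52 ± 0.68 on the log2 scale (SE, limma adjusted p = 0.55). Nr4a1 differed by -0.79 (limma adjusted p = 0.595) and the Jun probe set 1369788_s_at by -0.37 (limma adjusted p = 0.626). None of the 9 passed, where 0.129% of all probe sets did, and these 3 of 9 were under an unadjusted 0.05, against 7.72% of all. Without replicate 5 at 6 h the Nr4a1 difference was -0.50, and without replicate 6 at 6 h that of this Jun probe set was -0.21. Within the array clusters the differences of Fos, Nr4a1 and the Jun probe set were -1.90, -1.40 and -0.52 for 2 arrays at 24 h against 2 at 6 h, and -0.55, -0.26 and -0.08 for 1 against 3.

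At 10 mg/kg, 24 h against 6 h, 0 of 9 passed (background 0.102%) and 1, Ier3, was under an unadjusted 0.05, against 5.26% of all probe sets, with a difference of -0.40 (limma adjusted p = 0.906) that was -0.54 and -0.18 within the clusters. In vehicle hearts 0 of 9 passed (background 0.226%), and none was under an unadjusted 0.05, against 11.4% of all.

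One week after the last dose, the members varied widely among the hearts of each group. At 10 mg/kg and 168 h, Fos was 8.28 and 7.77 in replicates 2 and 4, against 4.25, 5.77 and 4.62 in the other 3. Egr1 was 10.49 and 9.38 in the same replicates and 7.33, 7.65 and 7.78 in the others, and Nr4a1 was 8.59 and 8.31, with 7.19, 7.29 and 7.23 in the others. At 80 mg/kg Fos ran between 4.65 and 8.37 over 6 hearts with a median of 6.77, and Egr1 between 7.99 and 10.68 with a median of 9.20. The 5 vehicle hearts had Fos values of 6.62, 6.82, 7.55, 6.27 and 5.97, which sat inside the span of both dosed groups. Vehicle hearts also reached 9.51 in Egr1 (median 8.41) and 8.11 in Nr4a1 (median 7.66), so the Egr1 value of replicate 4 at 10 mg/kg was within the vehicle range.

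The means at 168 h were correspondingly near each other. For 80 mg/kg against vehicle, Fos differed by 0.05 (95% interval -1.25 to 1.35) and Egr1 by 0.51 (-0.45 to 1.47). For 10 mg/kg against vehicle, Fos differed by -0.50 (-1.87 to 0.86). The interval of Fos at 80 mg/kg holds changes of more than 2-fold either way. None of the 9 members passed at 80 mg/kg, where 0.0537% of probe sets did, nor was any under an unadjusted 0.05, against 5.44% of all.

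At 336 h, 2 of the 5 hearts given 80 mg/kg carried high values again. Egr1 had 10.28, 8.42, 8.50, 8.06 and 10.20 at 80 mg/kg, against 8.17, 7.79, 8.26, 7.83 and 8.16 in vehicle hearts. All 5 lay above the vehicle mean, but the lowest fell inside the vehicle range. The difference was 1.05 ± 0.50 (SE, limma adjusted p = 0.667), and between 0.75 and 1.31 when each array was left out in turn.

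Fos had 7.77 and 7.92 in the same 2 hearts, replicates 1 and 5, and 5.84, 5.58 and 5.41 in the others, against 6.59, 5.21, 5.76, 5.44 and 6.69 in vehicle hearts. Nr4a1 likewise had 8.54 and 8.92 in replicates 1 and 5, and 7.30, 7.47 and 6.70 in the others. At 10 mg/kg Fos ran between 4.59 and 7.49 with a median of 5.17 over 6 hearts, replicates 1 and 4 being the high ones, as they were for Egr1 with 9.04 and 9.30. None of the 9 passed at 80 mg/kg against vehicle at 336 h, where 0.29% of probe sets did, and only Egr1 was under an unadjusted 0.05, against 6.97% of all probe sets.

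Between 168 and 336 h many probe sets of the array were called, in vehicle as in dosed hearts. All arrays at 336 h lay in the same array cluster, which held few of the 168 h arrays, so time and cluster cannot be told apart there. For 336 h against 168 h, 3.02% of probe sets passed at 80 mg/kg, 5.11% at 10 mg/kg and 4.55% in vehicle hearts, with 0 of 9 members in each, and 0 of 9 under an unadjusted 0.05 against 18.7%, 20.8% and 21.2% of all probe sets. For 168 h against 24 h the shares were 0.0161%, 0.00537% and 0%, again with 0 of 9 members on either count. Among the tests of whether the effect of 80 mg/kg differed between the 4 times, 0 of 9 members passed (background 0.0215%). The smallest p there was that of Nr4a1, 0.0523 before and 0.689 after limma's adjustment, and that of Fos was 0.157. The corresponding test for 10 mg/kg called 0 of 9 (background 0%, none under an unadjusted 0.05). That for the vehicle groups alone called 0 of 9 (background 8.05%), with 1, the Jun probe set 1369788_s_at, under an unadjusted 0.05, against 25.6% of all probe sets.

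Over all 12 groups, limma's F test called 1 of 9 members, Ier3 (F = 2.78, adjusted p = 0.0396), where 17.6% of all probe sets were called. Its highest mean, 8.64 ± 0.25 (SD, n = 5), was at 10 mg/kg and 6 h, where 4 of the 5 arrays had Myl7 above 9, and its lowest, 7.79 ± 0.40 (SD, n = 5), at 80 mg/kg and 336 h, where none had. Without the 10 arrays of high Myl7 the F was 1.46, but this leaves out 4 of the 5 arrays of the group with the highest mean. The part of tissue content in the call was not tested. The second highest mean, 8.35 (n = 4), was that of vehicle hearts at 6 h, where 1 array had Myl7 above 9. None of the gaps between neighbouring groups in the order exceeded the spread of the pair. The call was lost under 6 of the other settings, with adjusted p between 0.0563 with the replicate number as a block and 0.446 with a term for array cluster, and when any of 11 single arrays was left out (adjusted p up to 0.102). Those arrays were replicates 1, 2, 3 and 4 at 10 mg/kg and 6 h, replicates 1, 3 and 4 at 80 mg/kg and 336 h, and, among vehicle hearts, replicates 5 and 6 at 6 h and 3 and 5 at 336 h. The other members' adjusted p in this test ran between 0.116 for the Jun probe set 1369788_s_at and 0.933 for 1374404_at.

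The group means were also put in order, and few neighbouring groups were separated by more than their spread. For Fos the group at 80 mg/kg and 6 h (8.0) was highest, followed by a tie at 6.69 between 10 mg/kg at 6 h and 80 mg/kg at 168 h, and the gap of 1.30 below the first was the only 1 of its 11 gaps larger than the spread of the pair. The lowest Fos mean was 5.82 at 10 mg/kg and 336 h. For Egr1 the 4 groups given 80 mg/kg were the top 4 of 12, with means of 9.21, 8.73, 9.15 and 9.09 at 6, 24, 168 and 336 h, and the largest gap anywhere in its order was 0.36. For the remaining tested members none of the gaps exceeded the spread of the pair. Some of them were nevertheless ordered by time, which was not tested. For Ier3 the 6 h groups of all doses had the highest means, followed by the 24 h groups. The 6 h groups were also highest for the Jun probe sets 1389528_s_at and 1369788_s_at, and the 336 h groups for Ier2. For the dimmest Jun probe set 168 h had the highest mean within each dose, narrowly so in vehicle hearts and at 10 mg/kg. Its means there were 8.37 in vehicle hearts, 8.27 at 10 mg/kg and 8.24 at 80 mg/kg, with the next highest at 8.35, 8.26 and 8.14. In Fos, Egr1, Nr4a1 and Junb, no time had the highest mean at all doses.

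Arrays of a group spread widely in some members and not in others. Around the group means, Fos had a standard deviation of 1.10, which exceeded that of 99.2% of probe sets tested, and Egr1 had 0.81 (95.1%) and Nr4a1 0.60 (86.1%). The median over all tested probe sets was 0.30. Among probe sets within 1 log2 unit of the same mean level, the places of Fos, Egr1 and Nr4a1 were 99.2%, 98.9% and 96.5%. Junb and Ier2 each had 0.43 (88.4% and 90.1% at matched level), Ier3 had 0.29 (78.5%) and Jun 0.28 (83.5%).

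**Figure D3:**
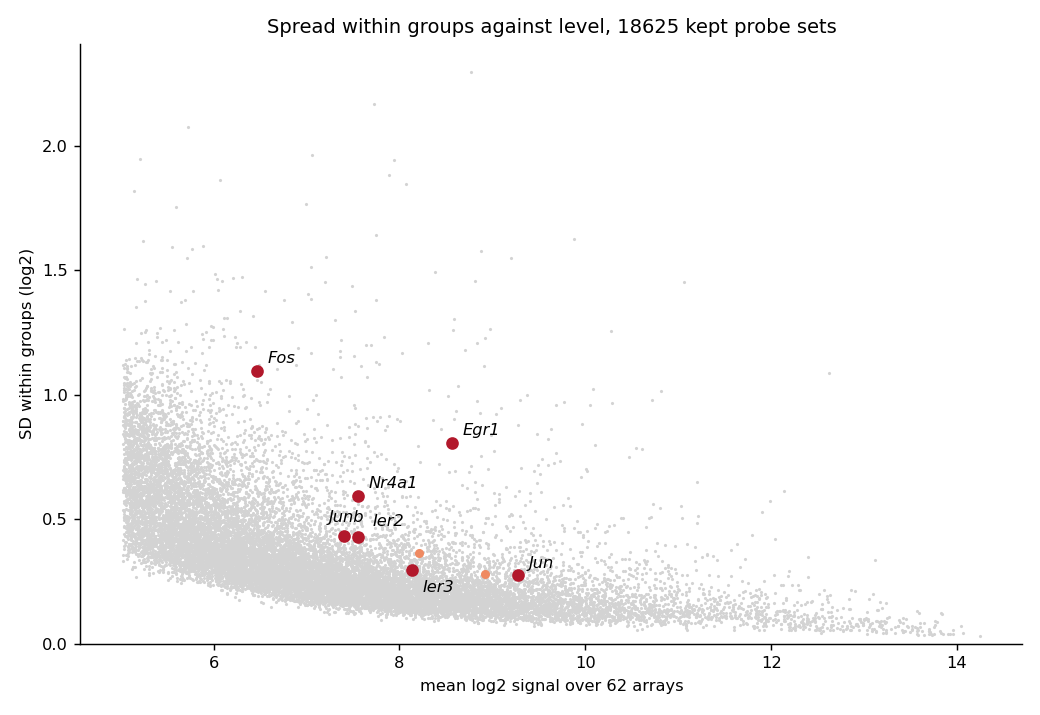
Standard deviation around group means (log2 units) against mean log2 signal for the 18625 tested probe sets, with the members named and the other Jun probe sets as small orange points. Fos at 1.10 and Egr1 at 0.81 lie near the upper edge for their level, and Ier3 and Jun lie in the body of the cloud.

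The spread was also set out by dose, pooled over the 4 times, as a description with no test. Fos had a standard deviation of 0.68 in vehicle hearts, 1.33 at 10 mg/kg and 1.16 at 80 mg/kg. Egr1 had 0.43, 0.85 and 1.01 over the same doses, and Nr4a1 had 0.38, 0.47 and 0.83. The ratio of 80 mg/kg to vehicle was 1.71 for Fos, 2.35 for Egr1 and 2.18 for Nr4a1, values that exceeded the same ratio in 95.2%, 99.5% and 99.1% of all tested probe sets, whose median ratio was 1.04. Junb (1.11), Ier2 (1.27), Jun by its brightest probe set (1.08) and Ier3 (0.88) were nearer to that median. The other Jun probe sets differed in direction, with 1.36 for 1369788_s_at and 0.68 for 1374404_at, above 82.8% and 9.53% of all tested probe sets. With other scalings and without the arrays of high Myl7 or of high actin 3′ to 5′ difference, the ratio stayed between 1.48 and 1.88 for Fos, between 1.95 and 2.40 for Egr1 and between 1.78 and 3.48 for Nr4a1. The ratio of Ier2 was 1.80 on the deposited scale, above those of Fos and Nr4a1 there, and between 1.02 and 1.37 in the other settings.

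**Figure D4:**
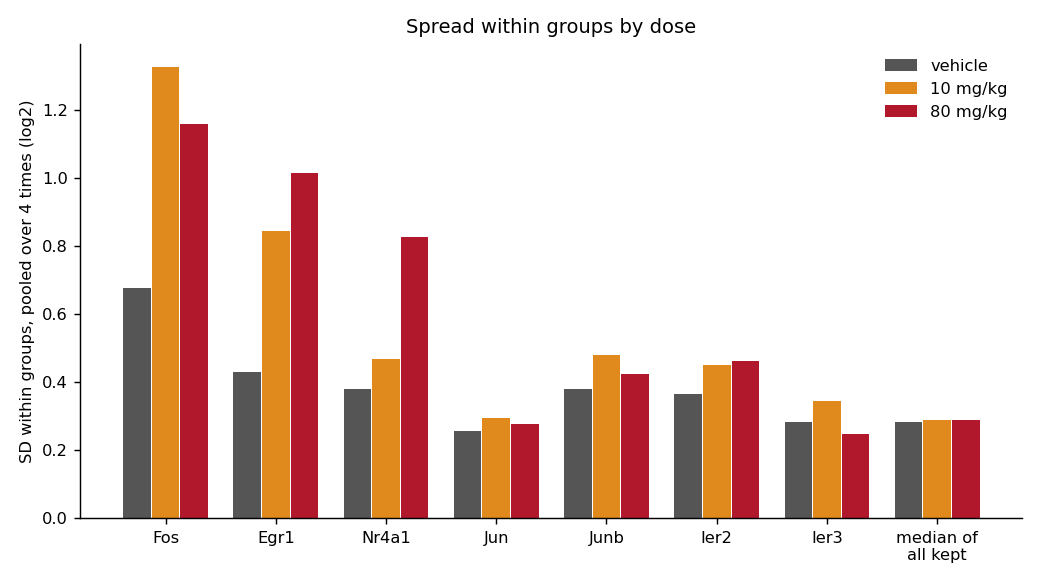
Pooled within-group standard deviation (log2 units) of each tested member in vehicle hearts and at 10 and 80 mg/kg, with the median of all tested probe sets beside it. Egr1 and Nr4a1 are lowest in vehicle hearts and highest at 80 mg/kg, whereas Ier3, Jun, Junb and Ier2 differ less between doses on the scale plotted.

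The hearts that were high in 1 member tended to be high in others. Each array's deviation from its group mean was compared between genes over the 62 arrays, which removes dose and time. Fos deviations correlated with those of Egr1 (Pearson r = 0.877, Spearman rho = 0.863), of Jun (0.723 and 0.711) and of Nr4a1 (0.714 and 0.743). Each of these coefficients had a permutation p of 1e-05, the smallest that 100000 permutations within groups can give, and 3e-05 after adjustment over the 9 relations computed. Leaving out the 2 arrays farthest from the median of Fos gave r of 0.856, 0.679 and 0.688. Adjusted over all 10556 genes compared with Fos, the permutation p of r was 0.00586 for each, and 73 genes (0.692%) were under 0.05, of which 43 had a positive and 30 a negative r.

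Jun is given here by its brightest probe set, 1389528_s_at, and its other probe sets, 1369788_s_at and 1374404_at, had r of 0.610 and 0.293 with Fos. The relation held within each cluster of arrays. Over the 3 clusters, of 21, 21 and 20 arrays, the r of Fos with Egr1 was 0.918, 0.898 and 0.844, with Jun 0.820, 0.877 and 0.875, and with Nr4a1 0.718, 0.789 and 0.707. By dose, the r of Fos with Egr1 was 0.536 over the 20 vehicle arrays, 0.896 over the 21 at 10 mg/kg and 0.963 over the 21 at 80 mg/kg. The difference between doses was not tested, and the spread of both genes is smaller in vehicle hearts. Ranked by r with Fos among the 10556 genes, Egr1 came at place 1, Jun by its brightest probe set at 4, Nr4a1 at 5 and Junb at 15.

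Over the 62 arrays together, the other members followed Fos less closely. Junb had r = 0.580 and rho = 0.529 over the 62 arrays (permutation p = 3e-05 and 0.00016, adjusted over 9 relations 6.75e-05 and 0.00036, r without the 2 farthest arrays 0.511), and 0.612, 0.489 and 0.840 within the clusters. Ier2 had r = 0.375 and rho = 0.334 (permutation p = 0.0089 and 0.0172, adjusted 0.016 and 0.0258), which was 0.265 without the 2 farthest arrays and so rested partly on them. Within the clusters the r of Ier2 was 0.838, 0.644 and 0.815, which in the first and the last was above that of Nr4a1 (0.718 and 0.707). Ier3 had r = 0.287 and rho = 0.220 (permutation p = 0.0502 and 0.123, adjusted 0.0643 and 0.123), and Ier2 and Ier3 were at places 201 and 557 among all genes. Between the other members r was 0.81 for Egr1 with Nr4a1, 0.69 for Jun with Nr4a1, 0.68 for Jun with Ier2 and 0.67 for Jun with Egr1.

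**Figure D5:**
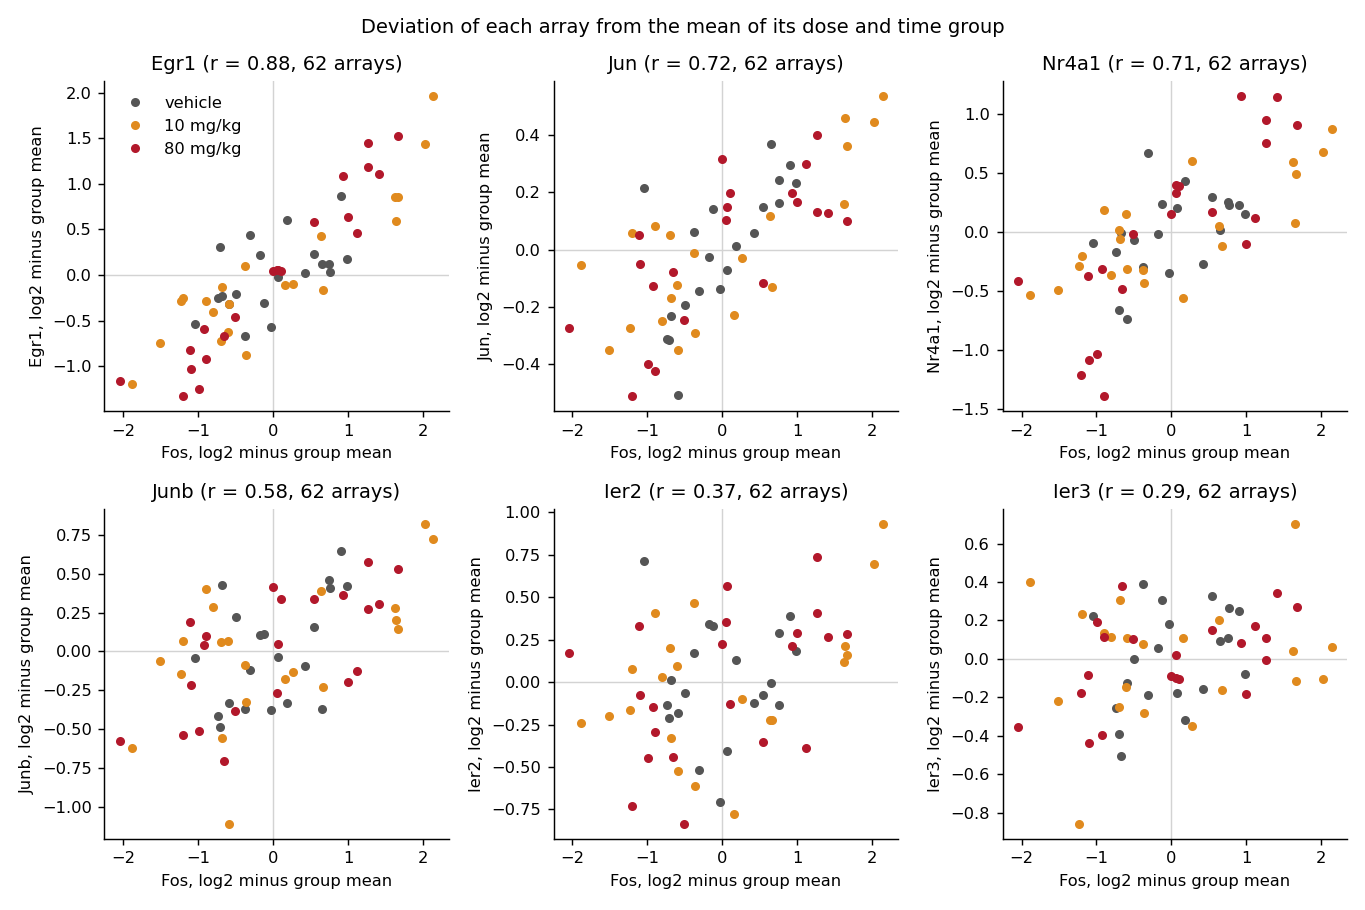
Deviation of each array from its group mean (log2 units) for Egr1, Jun, Nr4a1, Junb, Ier2 and Ier3 against that of Fos, 62 arrays coloured by dose. Egr1 (r = 0.877) lies along a line, Jun (0.723) and Nr4a1 (0.714) follow it, and Ier3 (0.287) does not.

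The genes most like Fos outside the 10 were chosen by the highest r of their deviations over the 62 arrays, among 10550 genes. They were Dusp1, a phosphatase of MAP kinases (0.80), Zfp36, which encodes the mRNA decay factor tristetraprolin (0.78), Klf4 (0.69) and Klf2 (0.67), both Krüppel-like factors, and Sgk1, a serum and glucocorticoid induced kinase (0.67). Rasd1 (0.65), Otud1, Stimate and Ddx3x (each 0.62) and the growth arrest gene Gadd45g (0.61) completed the first 10. Dusp1 also came first for Egr1 (0.77), Jun (0.77), Nr4a1 (0.69) and Junb (0.68). For Ier2 the first were Loxl2 (0.67), Ccar1 and the MAP kinase phosphatase Dusp6 (each 0.66), and for Ier3 Nsfl1c and Cpsf4 (each 0.48). The first 10 genes had differences between -0.38 and 0.48 at 80 mg/kg against vehicle at 6 h, none of which passed (smallest limma adjusted p 0.807). At 24 h these ran between -0.80 for Sgk1 and 0.21 for Rasd1 (smallest limma adjusted p 0.17), with Klf2 at -0.64 and Klf4 at -0.55. At 336 h they ran between -0.05 for Dusp1 and 0.62 for Sgk1 (smallest 0.497). For 10 mg/kg against vehicle at 6 h they ran between -0.75 for Klf2 and -0.04 for Klf4 (smallest 0.653).

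Measures of tissue content and RNA quality were set beside the deviations of Fos, Egr1 and Nr4a1, 14 measures in all. The Myl7 level had r of 0.01, -0.09 and -0.03 with the 3 genes (permutation p adjusted over the 14 measures 0.95, 0.72 and 0.868). The actin 3′ to 5′ difference, a measure of RNA breakdown, had -0.17, -0.12 and -0.32 (adjusted permutation p of 0.754, 0.714 and 0.112). The neutrophil list, of which only S100a9 was measured out of 5, had -0.36, -0.38 and -0.44, with adjusted permutation p of 0.0584, 0.0249 and 0.0147 and rho of -0.35, -0.37 and -0.45 (adjusted 0.132, 0.0672 and 0.0105). Without the 2 arrays farthest from the median, these r were -0.32, -0.36 and -0.38. S100a9 itself was dim, with a mean of 5.14 and a range of 2.57 to 6.78, and it ran between 3.44 and 6.29 at 80 mg/kg and between 3.75 and 5.92 in vehicle hearts at 6 h. Its part in the spread of the 3 genes was not tested.

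The 4 dim probe sets had mean signals below the filter level of 5.03. Atf3 averaged 4.91, Myc 4.52, Fosb 3.4 and the second Fos probe set, 1371283_at, 2.90, and the deviations of the last had r = 0.04 with those of the brighter Fos probe set. Fitted without the filter, Myc at 336 h had 5.29, 4.37, 5.58, 4.38 and 4.82 at 80 mg/kg, against 3.63, 5.03, 2.33, 1.49 and 5.03 in vehicle hearts, where 3 low vehicle arrays lay below all 5 dosed ones. The Myc difference was 1.39 (limma adjusted p = 0.654), and at 10 mg/kg, against the same vehicle arrays, 1.46, which did not pass the adjusted threshold either. The second Fos probe set differed between 80 and 10 mg/kg at 6 h by -0.69, opposite in sign to the brighter one. This was under an unadjusted 0.05 but did not pass limma's adjusted threshold. Atf3 deviations had r = 0.330 and rho = 0.384 with Fos (permutation p adjusted over 9 relations 0.0189 and 0.00889). Myc had r = 0.254 and rho = 0.235 (adjusted 0.0643 and 0.0957), and Fosb r = 0.245 and rho = 0.268 (adjusted 0.0659 and 0.0622).

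The rest of the pathway was taken from 4 lists. Of the 58 other immediate early and early response genes 50 were measured, of the AP-1 and ATF partners 11 of 16, of the upstream kinases and factors 20 of 28, and of the MYC network 14 of 17. None of their genes passed limma's adjusted threshold in any comparison between doses. At 80 mg/kg against vehicle, 5, 14, 3 and 7 of the 50 other early genes were under an unadjusted 0.05 at 6, 24, 168 and 336 h, where the shares over all probe sets were 6.65%, 11.1%, 5.44% and 6.97%. The list of other early genes had median differences of -0.01, -0.05, 0.06 and 0.15 at 80 mg/kg against vehicle at 6, 24, 168 and 336 h, with 23, 23, 28 and 34 of 50 above 0, while the medians of all probe sets were 0.01, -0.02, -0.01 and -0.01. The median r with Fos was 0.20 for that list (range -0.40 to 0.80), 0.11 for the AP-1 and ATF partners and -0.01 for the upstream kinases and factors, beside a median near 0 over all genes.

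Between 168 and 336 h several list genes passed, and all arrays at 336 h were in the same cluster. At 80 mg/kg these were the antiproliferative gene Btg1 (-0.36), the synaptic scaffold gene Homer1 (-0.29) and Rnd3 (-0.36) of the early genes, 3 of 50 where 3.02% of all probe sets passed, all lower at 336 h. In the same hearts Atf4 was higher by 0.32, the protein kinase A subunit gene Prkaca higher by 0.70 and the calcium/calmodulin kinase gene Camk2d lower (-0.24). At 10 mg/kg 5 of 50 early genes passed, where 5.11% of all probe sets did: the MAP kinase phosphatase gene Dusp5 was higher (0.65), and Klf6 (-0.46), Btg1 (-0.37), Homer1 (-0.35) and Rnd3 (-0.33) were lower. The AP-1 partners Jund (-0.55) and Atf2 (-1.49) were also lower there, as were the nucleolin gene Ncl of the MYC network (-0.28), Elk4 (-0.83) and Crebbp (-0.50), whereas Prkaca (0.89), Map2k2 (0.45) and Mapkapk2 (0.68) were higher. In vehicle hearts 4 of 50 early genes passed, where 4.55% of all probe sets did. Of the list genes there, Pim3 (0.62) and Prkaca (0.71) were higher and Jund (-0.47), Klf6 (-0.48), Btg1 (-0.38), Rnd3 (-0.49) and Elk4 (-0.78) were lower. On the deposited scale, where all probe sets shifted by a median of 0.49 at 80 mg/kg, 0.62 at 10 mg/kg and 0.24 in vehicle hearts, Btg1, Homer1, Rnd3 and Camk2d at 80 mg/kg and Btg1, Homer1, Rnd3, Klf6, Jund, Ncl and Crebbp at 10 mg/kg changed sign.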

How the data were processed

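Cardiac muscle RNA of 62 samples was hybridised to Affymetrix rat arrays. The deposited values are linear signal intensities per probe set, for which the submitters' processing notes name GCOS and MAS5, without giving their versions. Array medians differed between deposited columns, so log2 intensities were quantile normalised in limma 3.58.1 (R 4.3.3). The 57 control probe sets were left out, and 18625 of 31042 probe sets with a mean log2 at or above the 40th percentile (5.03) were kept. A 12-group linear model (50 residual degrees of freedom) with limma's empirical Bayes gave 21 contrasts and 4 F tests, adjusted by Benjamini-Hochberg over all kept probe sets, with a threshold of 0.05, and the fit was tested on simulated data. A gene with several probe sets was taken by its brightest. Correlations used deviations from group means with 100000 permutations within groups.

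The members, the lists and the tests were chosen with earlier results of these data known. All members are named, with the 10 genes of highest r with Fos and the pathway list genes that passed in contrasts between times. Pathway list genes called by the F tests are not all named. The test over 12 groups called 15 of 50 other early genes and 8 of 20 upstream kinases and factors. It also called 2 of 11 AP-1 and ATF partners and 3 of 14 MYC network genes (background 17.6%). The test over the vehicle groups called 8 of 50, 3 of 20, 1 of 11 and 2 of 14 (background 8.05%). Precision is limited by the 4 to 6 arrays of a group. Alternatives were other scalings, filters, array weights, blocks, and arrays left out.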

Additional observations from a re-analysis of the deposited data

Results flagged for a closer look

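Single arrays stood apart from the rest of their group in 7 of 120 combinations of member and group examined, where chance alone gives about 1 in 20. Egr1 reached 9.67 in replicate 6 at 10 mg/kg and 24 h, where the next highest was 8.12, and that array also had the highest Fos and Junb signals of its group. Nr4a1 was 6.30 in replicate 1 of the vehicle hearts at 6 h, below the next at 7.16, which lowers the vehicle mean in the 6 h comparison. Ier2 was 8.13 in replicate 4 of the vehicle hearts at 336 h, with the next at 7.78. The other 4 concerned dim probe sets. Atf3 was 2.55 in replicate 6 at 80 mg/kg and 24 h, with the next at 4.82, and Fosb was 2.46 in replicate 5 of the vehicle hearts at 168 h, with the next at 4.15. Myc was 1.39 in replicate 1 at 10 mg/kg and 6 h (next 4.67) and 2.58 in replicate 2 at 80 mg/kg and 24 h (next 4.32).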

How the results depend on the processing

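Over settings other than leaving out single arrays, 266 of 275 counts of called members kept their value. On the deposited scale the counts for 336 h against 168 h became 1 at 80 mg/kg, where all probe sets shifted by a median of 0.49 and 11.1% passed, and 5 at 10 mg/kg, where they shifted by 0.62 and 50.4% passed. The test over 12 groups then called 5, with 27.8% of all probe sets. That test called 0 members under median scaling, without a filter, with arrays weighted, with a cluster term and without the arrays of Myl7 above 9, and between 0 and 2 when single arrays were left out. With the replicate number as a block it also called 0 members, Ier3 having an adjusted p of 0.0563 in limma. Same-numbered arrays had median correlations of deviations between -0.03 and 0.11 over the 4 times, highest at 168 h with 7 of 14 above 0.1, and for no pair of groups were all above 0.1, so the numbers were not taken as pairs. The Ier3 difference of 80 from 10 mg/kg at 6 h turned to 0.00686 on the deposited scale. Correlations with Fos moved across the threshold for Fosb (0.287), Ier3 (0.360) and Myc (0.271) on the deposited scale, Ier3 (0.337) with median scaling, Ier2 (0.265) without the 2 farthest arrays, Ier3 (0.360) without 24 h, Atf3 (0.340) and Ier2 (0.344) without 168 h, and Atf3 (0.308) and Ier2 (0.339) without 336 h. The spread around group means was recomputed on 2 other scales for 7 members, and on the deposited scale that of Ier3 was 0.43 and that of Jun 0.39. Leaving out the 3 arrays of highest actin difference was added after seeing the data. The cause of these changes was not tested, and signal near background limits Atf3, Fosb, Myc and the second Fos probe set.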
